A study of Mus musculus with 3 samples.

Results

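The NRF2 pathway and its antioxidant enzymes were examined as a set of 42 named genes, all of which were among the 15287 genes of the deposited expression table. The genes were taken by name, for their function. The rule used no measured value, but the set was drawn up with earlier results of these data known. They comprised the regulators Nfe2l2 and Keap1 and 8 groups of genes arranged by role, from NRF2-induced detoxification genes to subunits of the NADPH oxidases. The expression values came from MC3T3-E1 cells, a wild-type preosteoblast line derived from mouse calvaria, and there was 1 library per condition. CTL cells received no treatment, Ti cells were exposed to titanium particles at 10 μg/cm² for 24 h, and Ti+Se-Met cells were given 5 μM selenomethionine along with the same amount of particles over the same 24 h. All libraries were of 1 cell line, and Se-Met without particles was not part of the series. Since each condition had 1 library, the differences below could not be checked against replicates, and p-values were not computed.

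NRF2, the product of Nfe2l2, is a transcription factor that cells keep scarce by binding it to KEAP1, which hands it to a ubiquitin ligase for destruction. Oxidants and electrophiles modify KEAP1, NRF2 then accumulates, pairs with small MAF proteins and binds antioxidant response elements near genes for glutathione synthesis, NADPH supply, detoxification and peroxide removal. In bone-forming cells, as in others, these enzymes set how much superoxide and peroxide a cell can clear.

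The core of the antioxidant response element, TGACNNNGC, in which N is any base, was looked for on both strands of the promoter windows of RefSeq on GRCm38.p6, which run from 250 bases before to 50 bases after each start site. Windows were found for 35 of the 42 genes (41 windows), but not for Hmox1, Abcc1, Gclc, Gsr, Gsta4, Sod3 and Prdx6. The core was present in 10 of the 35 genes (28.6%), against 12.4% of all 32851 windows, 14.0% of all 27025 genes with a window and 16.8% of the 8976 genes with a window that passed the expression filter. A match of these letters is a description of the window and does not show binding. The 10 matches are shown so that they can be set beside the expression values given below, and were not shown to be working response elements. They are printed with 10 bases on either side, read 5′ to 3′ on the strand of the gene and with the match in capitals. Where the capitals begin with GC, the core lies on the opposite strand.

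Nfe2l2, chr2:75704885-75704913, minus strand, match at position -240 from the start site: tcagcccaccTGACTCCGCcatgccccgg
Srxn1, chr2:152105542-152105570, plus strand, match at 28: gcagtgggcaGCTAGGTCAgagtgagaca
Gstm5, chr3:107895802-107895830, plus strand, match at -42: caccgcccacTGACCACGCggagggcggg
Gclm, chr3:122245413-122245441, plus strand, match at -134: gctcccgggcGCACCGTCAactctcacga
Prdx1, chr4:116685456-116685484, plus strand, match at -133: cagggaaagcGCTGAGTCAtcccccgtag
Pgd, chr4:149166061-149166089, minus strand, match at 3: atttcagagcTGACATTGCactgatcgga
Mgst1, chr6:138140461-138140489, plus strand, match at -56: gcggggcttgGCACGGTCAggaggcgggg
Me1, chr9:86695902-86695930, minus strand, match at -6: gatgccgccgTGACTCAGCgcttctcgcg
Sod1, chr16:90220696-90220724, plus strand, match at -56: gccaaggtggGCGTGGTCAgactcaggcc
G6pdx, chrX:74428919-74428947, minus strand, match at -57: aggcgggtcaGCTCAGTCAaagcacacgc

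The matches of Prdx1 and Me1 also overlapped an AP-1 motif (TGACTCA or TGAGTCA), and the other 8 did not. Prdx1 was the gene of this group with the highest level in the Ti library after Gstp1, so its upstream 250 bases (chr4:116685349-116685598, plus strand, GRCm38.p6) are given in full, with the match in capitals: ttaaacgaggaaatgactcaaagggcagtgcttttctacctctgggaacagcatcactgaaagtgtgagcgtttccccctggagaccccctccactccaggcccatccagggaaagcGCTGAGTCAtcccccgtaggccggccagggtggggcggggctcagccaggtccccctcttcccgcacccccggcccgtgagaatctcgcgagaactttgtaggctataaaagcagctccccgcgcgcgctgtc

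The values are FPKM, fragments per kilobase of transcript scaled to the size of the library, so that levels can be compared between genes. Where 3 values stand side by side, they are those of CTL, then Ti, then Ti+Se-Met. The spacing of the values in 453 short genes put the depth at 15150000, 15250000 and 10700000 fragments, with near settings placing it between 12700000 and 15700000, between 13100000 and 15900000, and between 9150000 and 11200000. Ratios are differences in log2(FPKM + 1), which understate the difference of low genes, and a gene was counted as past 1.5-fold or 2-fold on that scale. Folds with an interval are plain ratios of FPKM with a 95% exact conditional binomial interval on estimated fragments, which covers counting error only and compares libraries, not conditions. In bulk RNA, a lower level can mean fewer cells expressing a gene or less RNA per cell, and these cannot be told apart. Of 10 markers of the osteoblast lineage, 7 reached 1 FPKM, and the summed level of the list was 5339.88, 5095.56 and 6442.96 FPKM. In Ti against CTL 5 of the 7 were lower and 1, Spp1, was higher past 1.5-fold. Col1a1 was at 1333.19, 354.2 and 481.63 FPKM, Runx2 at 26.77, 17.14 and 22.97 and Spp1 at 1261.19, 3705.78 and 4659.49, whereas Sp7 and Bglap were below 1 FPKM in every library and Ibsp was listed at 0, 0.04 and 0. Of the macrophage markers, 3 of 6 were listed among the 15287 genes. Their summed level was 26.8, 15.2 and 12.94 FPKM, nearly all of it Lyz2, and Csf1r and Cd68 did not exceed 0.1 and 0.42 FPKM. Of the osteoclast markers, 3 of 4 were listed, and their sum of 17.82, 29.74 and 26.22 FPKM was nearly all Ctsk, with Acp5 at 0, 0.06 and 0. Ctsk was thus higher in the Ti-treated libraries, like many of the genes below, and its part in the results was not tested. The sums of endothelial and adipocyte markers did not exceed 0.27 FPKM, and those of muscle and chondrocyte markers ranged from 0.32 to 1.21 and from 25.12 to 40.01 FPKM, the latter nearly all Sox9.

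Most of the antioxidant genes had a higher level with Ti than in CTL, with 32 of 41 above equal as deposited and 27 once every library was rescaled to the same sum (TPM). Over all genes, 6159 of 11137 were above equal as deposited, so a higher value in Ti was also the more frequent direction in the whole set. Of the 42 genes, 41 reached 1 FPKM in at least 1 library, and the exception was Nox4. Past 1.5-fold, 16 of the 41 were higher in Ti (39.0%), against 15.5% of all 11137 genes that passed this filter, and 2 were lower (4.88%), against 11.3% of all genes. Past 2-fold, 6 were higher (Hmox1, Srxn1, Gss, Mgst1, Prdx1 and Prdx6), against 3.63% of all genes, and 1, Gstm1, was lower, against 3.64%. The median ratio was 0.41 over the 41 genes and 0.08 over all genes. These are mostly abundant genes. Mgst1, at 0.26 FPKM in CTL, passed the filter of 1 FPKM only through the libraries with particles. When the filter was a mean of 5 FPKM, 40 of the genes passed, without Mgst1, and their median was 0.41 against 0.12 for all genes. Past 1.5-fold, 15 of the 40 were then higher and 2 lower, against 17.1% and 9.18% of all genes. Past 2-fold, 5 were higher and 1 lower, against 346 and 271 of all 8729 genes. As TPM, the median of all genes moved to -0.13 and that of the 41 genes to 0.19, so that the distance between both was 0.32, in place of 0.34 as deposited. The counting interval left out equal levels for 29 genes that were higher, against 43.1% of the 10919 genes with a known length, and for 6 that were lower, against 32.2%. As TPM, 12 of the 41 were higher and 2 lower past 1.5-fold, against 7.51% and 19.6% of all genes. The 42 genes together made up 0.769%, 0.913% and 0.818% of all FPKM.

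**Figure D1:**
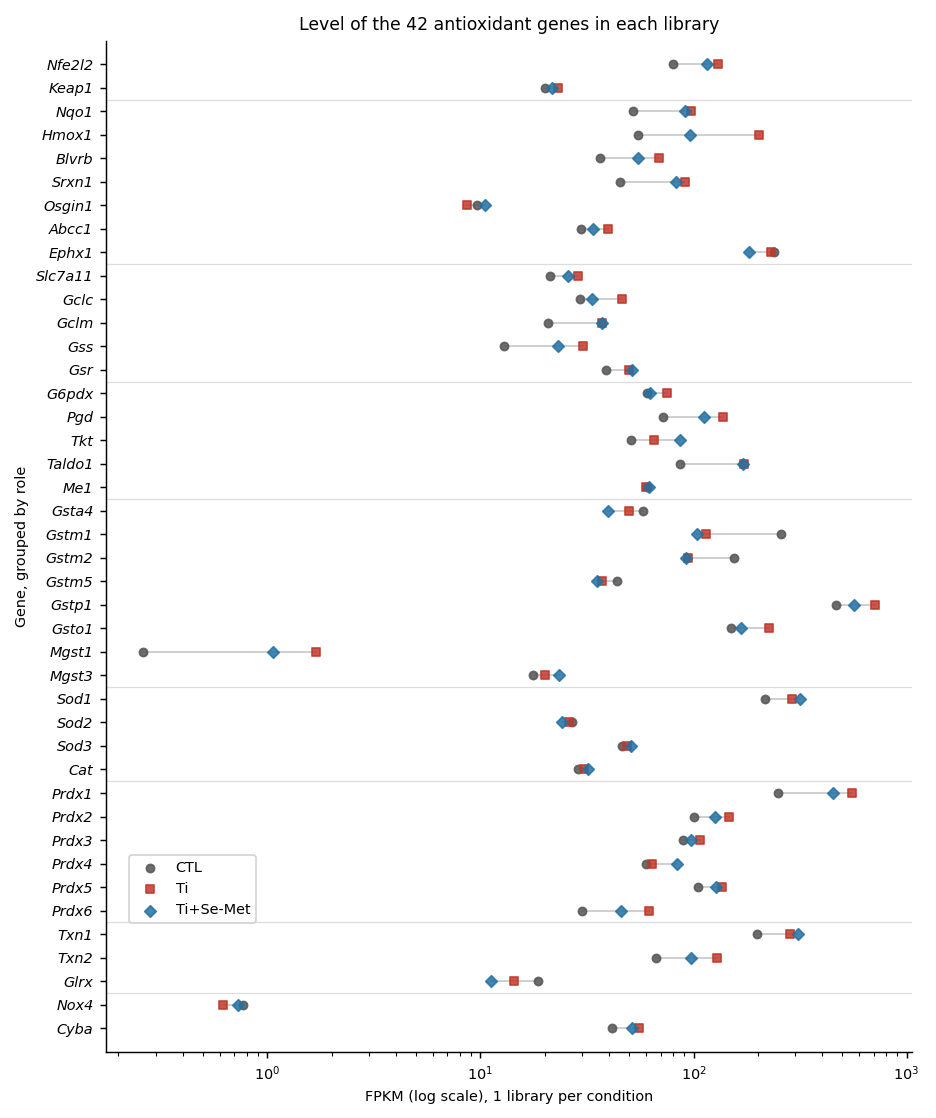
Level of each of the 42 genes in the 3 libraries, in FPKM on a log scale, with 1 point per library and the genes grouped by role. Hmox1 spans 54.84 to 203.87 FPKM, while Gstm1 and Gstm2 have CTL points well to the right of those of the treated libraries.

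Nfe2l2 was at 80.52, 130.15 and 115.51 FPKM, with a fold of 1.62 (interval 1.54 to 1.69) in Ti against CTL that was below 1.5-fold as TPM and with upper-quartile scaling. Keap1, the inhibitor, was at 20.19, 23.03 and 21.67 FPKM, a fold of 1.14 (1.04 to 1.25) that turned below 1 as TPM. CTL was the lowest library for both genes as deposited. The level of Nfe2l2 was 3.99, 5.65 and 5.33 times that of Keap1.

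Among the 7 NRF2-induced detoxification genes, 4 were higher in Ti past 1.5-fold and none lower. The shares over all genes, 15.5% higher and 11.3% lower, are the background for this count and for those of the roles below. Hmox1, which encodes the inducible heme oxygenase, was at 54.84, 203.87 and 96.48 FPKM, with folds of 3.72 (3.48 to 3.97) in Ti against CTL and 1.76 (1.63 to 1.90) in Ti+Se-Met against CTL. The Ti library stood far above the other two. Blvrb, a biliverdin reductase, was at 36.32, 68.85 and 54.88 FPKM, with a fold of 1.90 (1.68 to 2.14). Nqo1, a quinone reductase often used as a readout of NRF2, was at 52.05, 97.55 and 91.56 FPKM, with a fold of 1.87 (1.74 to 2.02). Srxn1, the sulfiredoxin that repairs overoxidised peroxiredoxins, was at 45.06, 91.22 and 83.17 FPKM, with a fold of 2.02 (1.91 to 2.14). For Nqo1 and Srxn1 the Ti and Ti+Se-Met libraries lay close together and above CTL. The efflux pump gene Abcc1 was higher by less, at 29.65, 39.86 and 33.62 FPKM. Osgin1, which is induced by oxidative stress in many cells, was at 9.61, 8.67 and 10.49 FPKM, and its interval of 0.756 to 1.08 in Ti against CTL included equal levels. Ephx1, the microsomal epoxide hydrolase, was at 239.91 and 229.9 FPKM in CTL and Ti and lowest in Ti+Se-Met, at 181.49.

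All 5 genes of glutathione synthesis and recycling had a higher value in Ti than in CTL, 3 of them past 1.5-fold, and this direction was the same under every scaling tried. Gclc, however, was below 1.5-fold as TPM and with both other scalings. Glutamate-cysteine ligase makes the first bond of glutathione, and its catalytic subunit Gclc was at 29.26, 46.13 and 33.5 FPKM. Its modifier subunit Gclm was at 20.8, 37.33 and 37.1 FPKM. The subunits thus differed in the Ti+Se-Met library, where Gclm matched Ti and Gclc lay nearer to CTL, and the level of Gclc relative to Gclm was 1.41, 1.24 and 0.903. Gss, glutathione synthetase, had the largest fold of this role, 2.35 (2.06 to 2.68), with 12.9, 30.26 and 23.19 FPKM. Slc7a11, the cystine importer, was at 21.21, 28.68 and 25.64 FPKM and Gsr, which reduces oxidised glutathione, at 38.99, 50.05 and 51.29, both past counting error in Ti against CTL but below 1.5-fold.

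The NADPH that glutathione and thioredoxin reductases consume comes largely from the pentose phosphate pathway, and 2 of 5 genes of NADPH supply were past 1.5-fold in Ti against CTL. Taldo1, transaldolase, was at 86.01, 172.03 and 171.02 FPKM, with a fold of 2.0 (1.87 to 2.14). Pgd, 6-phosphogluconate dehydrogenase, was at 72.15, 137.31 and 112.58 FPKM, with a fold of 1.90 (1.81 to 2.0). Tkt, transketolase, which like Taldo1 belongs to the non-oxidative part of the pathway, followed another order, with 50.86, 65.57 and 86.29 FPKM. Ti+Se-Met was its highest library, and the fold against CTL was 1.70 (1.61 to 1.79). G6pdx, which encodes the entry enzyme of the pathway, was at 60.31, 75.27 and 62.44 FPKM. Me1, the cytosolic malic enzyme, hardly differed, with 60.71, 60.16 and 61.59 FPKM and an interval of 0.941 to 1.04 in Ti against CTL.

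The glutathione S-transferases, which attach glutathione to electrophiles, were split. Of the 8 genes, 3 were higher and 2 lower past 1.5-fold in Ti against CTL, against 15.5% and 11.3% of all genes. Their median ratio was -0.02, against 0.08 over all genes. Gstm1, of the mu class, was at 256.3, 115.01 and 103.38 FPKM, a fold of 0.449 (0.425 to 0.473) in Ti against CTL. Gstm2 was at 154.75, 94.23 and 92.45 FPKM, a fold of 0.609 (0.567 to 0.653). Gstm5, the other mu-class gene examined, was at 43.81, 37.05 and 35.05 FPKM, and Gsta4, of the alpha class, at 57.76, 49.78 and 39.77. CTL was the highest library for all 4 of these genes, and they were lower in Ti than in CTL under every scaling. Gstp1, of the pi class, was the most abundant transferase, with 467.85, 712.89 and 568.45 FPKM and a fold of 1.52 (1.47 to 1.58) in Ti against CTL. Gsto1, of the omega class, was at 149.96, 225.82 and 166.93 FPKM, with a fold of 1.51 (1.43 to 1.59). As TPM, or when libraries were scaled to the same upper quartile or by the median ratio over genes (median of ratios), Gstp1 and Gsto1 were below 1.5-fold. Mgst1 was barely detected, at 0.26, 1.69 and 1.06 FPKM on an estimated 4, 26 and 11 fragments, and its interval of 2.24 to 25.5 was accordingly wide. Mgst3 was at 17.57, 20.01 and 23.47 FPKM. The level of Gstp1 relative to Gstm1 was 1.83, 6.2 and 5.5, and the share of Gstm1 in the summed level of the 8 genes was 22.3%, 9.15% and 10.0%. That sum was 1148.26, 1256.48 and 1030.56 FPKM, and its fold of 1.09 in Ti against CTL was below 1 as TPM (0.933) and with upper-quartile scaling (0.964).

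Reads of gene copies limit some of these values. Of the 100-base windows of its transcript in GENCODE M21, 52.8% of Gstp1, 14.5% of Me1, 7.73% of Gstm1, 4.24% of Sod1 and 4.03% of Prdx2 also occur in transcripts of other genes, mainly Gstp2 for Gstp1. For every other gene of the 42 the share was below 1%. How the authors assigned such reads is not given in the sources used here, so the values of Gstp1 and Me1 are the least certain. Gstp2 was at 7.72, 7.9 and 5.82 FPKM.

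**Figure D2:**
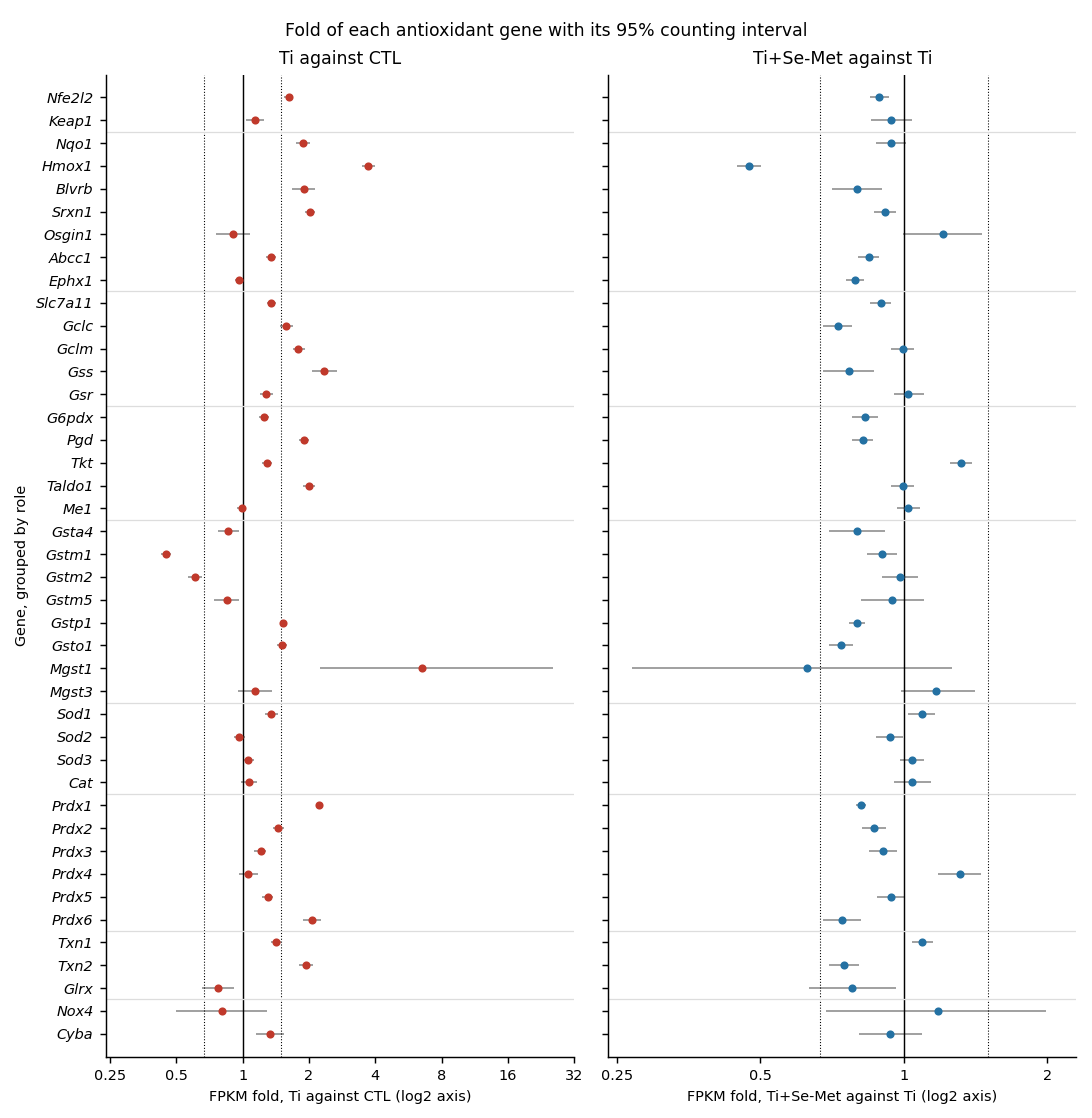
Fold of FPKM of each gene in Ti against CTL (left) and in Ti+Se-Met against Ti (right) on a log2 axis, with bars for the 95% counting interval and dotted lines at 1.5-fold in either direction. On the right, Hmox1 at 0.473 is the single point beyond the dotted lines apart from Mgst1, whose interval of 0.269 to 1.26 rests on 26 and 11 fragments.

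Superoxide dismutases turn superoxide into hydrogen peroxide, and catalase breaks that down. None of these 4 genes was past 1.5-fold in any comparison. Sod1, the cytosolic enzyme, was at 215.95, 290.34 and 315.28 FPKM, and its folds against CTL were 1.34 (1.26 to 1.44) in Ti and 1.46 (1.36 to 1.57) in Ti+Se-Met. Sod2, the mitochondrial enzyme, was at 26.96, 25.99 and 24.27 FPKM, and Sod3, which is secreted, at 46.08, 48.87 and 50.82. Cat was at 28.64, 30.63 and 31.93 FPKM. In Ti against CTL the intervals of Sod2 (0.910 to 1.02) and Cat (0.983 to 1.16) included equal levels, and the direction of Sod3 and Cat changed with the scaling.

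The peroxiredoxins, which reduce peroxides at a reactive cysteine, had the highest fold of summed level among the 9 roles in Ti against CTL. It was 1.69 as deposited, against 1.17 for the sum of all genes. The sums of the peroxiredoxins were 634.72, 1069.54 and 930.82 FPKM. Most of the difference came from Prdx1, an NRF2 target in many cells, at 250.26, 554.57 and 450.39 FPKM and with a fold of 2.22 (2.16 to 2.28) in Ti against CTL. Its share of the 6 genes' sum was 39.4%, 51.9% and 48.4%. Prdx6, which uses glutathione, was at 29.95, 61.72 and 45.74 FPKM, a fold of 2.06 (1.88 to 2.26). Prdx2 (100.72, 146.43 and 126.72 FPKM), Prdx3 of mitochondria (89.22, 107.56 and 97.31) and Prdx5 (104.51, 135.5 and 127.07) were higher in Ti by less than 1.5-fold. Prdx4, which works in the endoplasmic reticulum, was near CTL in Ti and highest in Ti+Se-Met, with 60.06, 63.76 and 83.59 FPKM, and its direction in Ti against CTL changed with the scaling.

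Thioredoxins donate electrons to peroxiredoxins. Txn1, the cytosolic form, was at 199.64, 284.25 and 310.05 FPKM, with folds against CTL of 1.42 (1.35 to 1.5) in Ti and 1.55 (1.47 to 1.64) in Ti+Se-Met. Txn2, the mitochondrial form, was at 66.99, 129.56 and 97.22 FPKM, with a fold of 1.93 (1.80 to 2.08) in Ti. The highest library was therefore Ti+Se-Met for Txn1 and Ti for Txn2. Glrx, a glutaredoxin, was lower in both treated libraries, with 18.67, 14.42 and 11.23 FPKM and a fold of 0.601 (0.492 to 0.737) in Ti+Se-Met against CTL. Of the NADPH oxidase subunits, which make superoxide, Nox4 stayed below 1 FPKM (0.77, 0.62 and 0.73, on an estimated 42, 34 and 28 fragments), and a difference was not detectable at this depth. Cyba, the membrane subunit that NOX4 needs, was at 41.49, 55.27 and 51.71 FPKM.

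**Figure D3:**
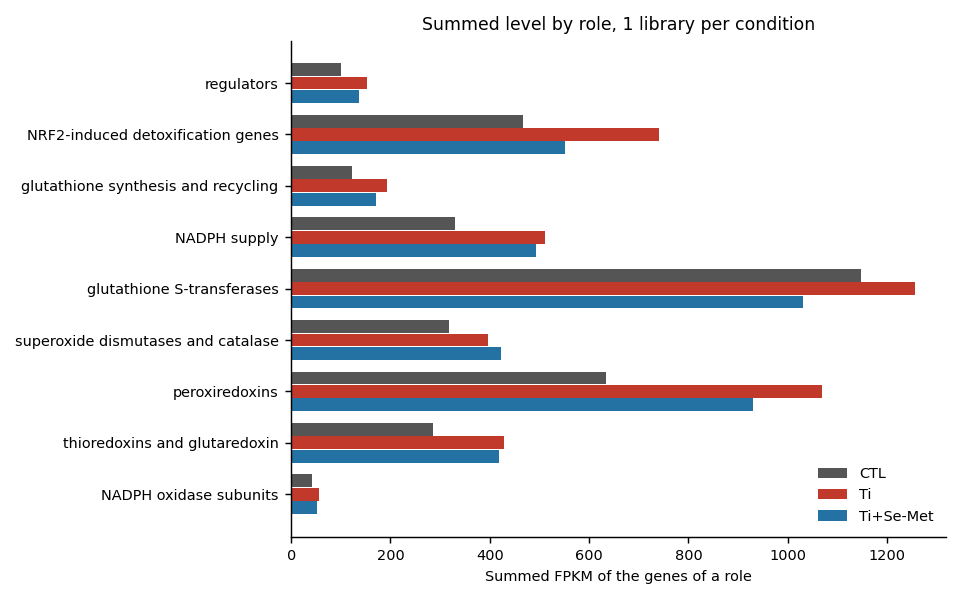
Summed FPKM of the genes of each role in each library, as bars from 0. As deposited, Ti is the highest library in 8 of the 9 roles, but CTL is higher for the glutathione S-transferases as TPM and Ti+Se-Met for NADPH supply and thioredoxins with median-of-ratios scaling. For superoxide dismutases and catalase, Ti+Se-Met is highest at 422.3 FPKM.

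In the Ti+Se-Met library, 12 of the 41 genes were higher than in CTL past 1.5-fold (29.3%), against 10.4% of all genes, and 3 were lower (7.32%), against 11.7%. The higher genes were Nqo1, Hmox1, Srxn1, Gclm, Gss, Pgd, Tkt, Taldo1, Mgst1, Prdx1, Prdx6 and Txn1, and the lower ones Gstm1, Gstm2 and Glrx. With the filter at a mean of 5 FPKM, which leaves out Mgst1, 11 of 40 were higher and 3 lower, against 10.9% and 8.75% of all genes. As TPM, the numbers were 8 higher and 5 lower, against 5.85% and 19.2% of all genes, and with upper-quartile scaling 9 and 4. Prdx6 was below 1.5-fold under all 3 scalings, Pgd and Txn1 as TPM and with the upper quartile, and Tkt as TPM. The counting interval left out equal levels for 30 genes that were higher, against 36.1% of all genes with a length, and for 7 that were lower, against 33.5%. Past 2-fold 0 were higher, against 2.64% of all genes, and 1, Gstm1, was lower, against 3.32%. As plain ratios, the highest folds were those of Mgst1, on 4 and 11 fragments, and of Taldo1, with 1.99 (1.86 to 2.13). The median ratio was 0.31 over the 41 genes and 0.01 over all genes. This comparison shares the CTL library with Ti against CTL, so the 2 are not independent.

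When the libraries with particles were compared, Hmox1 was the 1 gene of the 41 past 1.5-fold. It was lower in Ti+Se-Met, with a fold of 0.473 (0.446 to 0.502), which is also past 2-fold. Over all genes, 1.28% were lower and 0.844% higher past 1.5-fold, and 0.0629% lower (7 genes) and 0.162% higher past 2-fold. With Hmox1 among them, 22 genes were lower in Ti+Se-Met with an interval that left out equal levels (53.7%), against 29.4% of the 10919 genes with a known length, and 4 were higher (9.76%), against 15.8%. These intervals rest on the values as deposited and were not redone under a scaling. Median-of-ratios scaling has factors of 1.04 for Ti and 0.986 for Ti+Se-Met. It would shift every fold of this pair upward, so genes with an interval close to 1 could enter or leave both counts. The 4 higher genes were Tkt, with a fold of 1.32 (1.25 to 1.39), Prdx4 with 1.31 (1.18 to 1.45), Sod1 with 1.09 (1.02 to 1.16) and Txn1 with 1.09 (1.04 to 1.15). Next to Hmox1, the lowest folds among well-measured genes were those of Gclc at 0.726 (0.676 to 0.779), Gsto1 at 0.739 (0.698 to 0.783), Prdx6 at 0.741 (0.677 to 0.811) and Txn2 at 0.750 (0.698 to 0.806). Of the 7 NRF2-induced detoxification genes, 6 had a lower value in Ti+Se-Met than in Ti. A lower value was also the more frequent direction in the whole set, with 6804 of 11137 genes. The summed level of the 7 genes fell from 739.92 to 551.69 FPKM, a fold of 0.746. Most of that difference came from Hmox1, which fell from 203.87 to 96.48 FPKM. Besides Hmox1, the fold was 0.789 (0.755 to 0.825) for Ephx1, 0.797 (0.708 to 0.9) for Blvrb, 0.843 (0.801 to 0.887) for Abcc1 and 0.912 (0.866 to 0.961) for Srxn1. For Nqo1, at 0.939 (0.876 to 1.01), and Osgin1, at 1.21 (0.997 to 1.46), the interval included equal levels, as it did for Gclm at 0.994 (0.940 to 1.05). Prdx1 was lower, at 0.812 (0.793 to 0.832). The median ratio was -0.14 over the 41 genes and -0.06 over all genes, and with median-of-ratios scaling they were -0.072 and 0.0023.

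**Figure D4:**
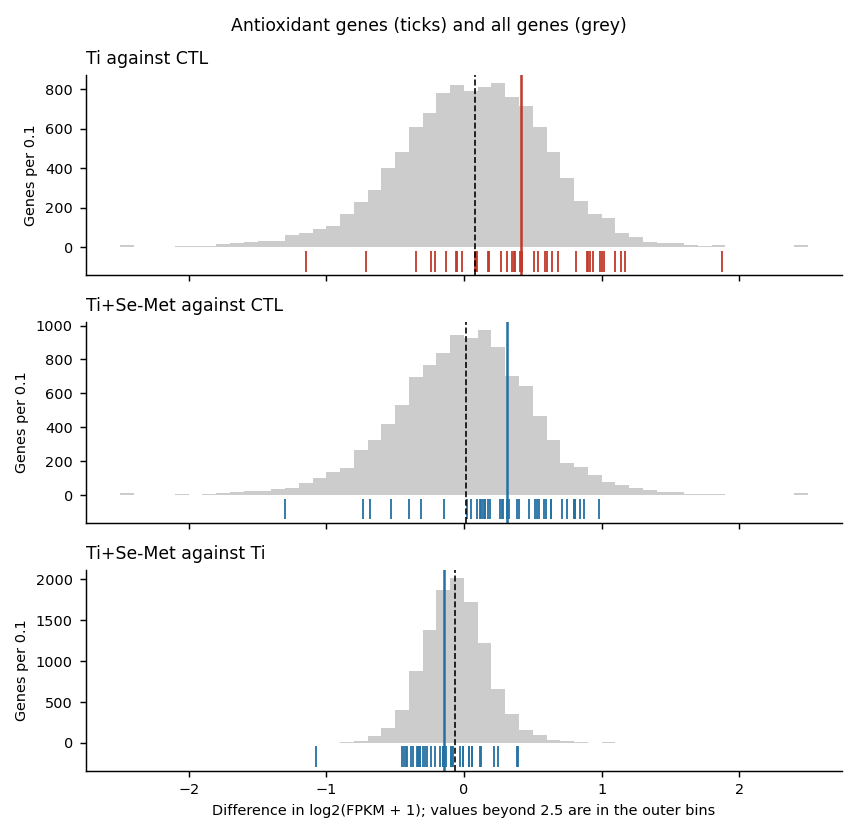
Differences in log2(FPKM + 1) for all 11137 genes (grey histogram, dashed line at their median) and for the 41 antioxidant genes past the filter (ticks, solid line at their median) in the 3 comparisons. The solid line lies at 0.41, 0.31 and -0.14 and the dashed line at 0.08, 0.01 and -0.06.

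The promoter matches shown above can be set beside these values. Of the 13 genes that were higher past 1.5-fold in Ti against CTL and had a promoter window, 6 held the core motif (46.2%). They were Nfe2l2, Srxn1, Gclm, Prdx1, Pgd and the barely detected Mgst1. Of the other 22 genes of the set with a window, 4 held it (18.2%), namely Gstm5, Me1, Sod1 and G6pdx. Both shares stand beside 16.8% of the 8976 genes with a window that passed the expression filter. Among the 4 genes of the set not past 1.5-fold higher are Me1, whose match overlaps an AP-1 motif and whose level hardly differed, and Gstm5, which was lower in Ti. Nqo1, a much-used NRF2 target, had no match in these 300 bases. Hmox1, Gclc and Prdx6 were also higher past 1.5-fold but had no window, so they are in neither count. The numbers are small and no test was made.

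Other genes of the pathway were taken as 7 lists of 122 genes, of which 115 were among the deposited genes and 96 reached 1 FPKM. In Ti against CTL, 24 of the 96 were higher and 11 lower past 1.5-fold, with a median ratio of 0.22. The shares over all genes, 15.5% higher and 11.3% lower with a median of 0.08, are the background for this count and for those of the single lists, and the share that was lower was close to it. In Ti+Se-Met against Ti, 0 were higher and 2, Sqstm1 and Esd, lower past 1.5-fold. Over all genes 0.844% were higher and 1.28% lower in that comparison, so both counts were near the shares of all genes. Among partners and regulators of NRF2, 3 of 13 were higher and 0 lower in Ti. Maff, a small MAF protein, was at 1.83, 10.05 and 9.13 FPKM. Sqstm1, which encodes p62, an autophagy receptor that binds KEAP1, was at 299.37, 1023.87 and 666.36 FPKM, with a fold of 3.42 (3.34 to 3.5) in Ti against CTL and 0.651 (0.639 to 0.663) in Ti+Se-Met against Ti.

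Of 22 further NRF2 targets, 9 were higher and 2 lower in Ti against CTL past 1.5-fold, with a median ratio of 0.38. The ferritin subunits were the most abundant, with Fth1 at 7537.34, 10930.0 and 9343.11 FPKM and Ftl1 at 2575.47, 5414.89 and 5385.91. Past 2-fold were also Txnrd1, thioredoxin reductase, at 65.2, 166.01 and 135.24 FPKM, and Cbr3, a carbonyl reductase, at 26.8, 60.06 and 55.89. Slc48a1, a heme transporter, was at 82.17, 171.59 and 121.99 FPKM. Esd, an esterase that hydrolyses S-formylglutathione, was at 95.21, 417.88 and 274.39 FPKM, Gla, the lysosomal alpha-galactosidase, at 7.13, 38.02 and 26.38, and Slc6a9, a glycine transporter, at 4.42, 13.29 and 10.72. Of the 22 genes, 6 had a lower value in Ti than in CTL, and those past 1.5-fold were Abcc5, an efflux pump, at 34.53, 16.13 and 20.02 FPKM, and Aldh3a1, an aldehyde dehydrogenase, at 73.22, 44.15 and 48.75. Of the genes given here, Fth1 and Aldh3a1 were not past 2-fold in Ti against CTL, and the latter falls outside the rule for named genes and was chosen after its values were seen.

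Of the other glutathione enzymes, 5 of 23 were higher and 3 lower past 1.5-fold in Ti against CTL, against 15.5% and 11.3% of all genes. Their median ratio of 0.09 was close to the 0.08 of all genes. Gpx4, the selenoprotein that reduces lipid peroxides and the most abundant of them, was at 337.85, 654.14 and 569.18 FPKM. The glutathione-degrading gene Chac1 was higher, with 2.78, 9.25 and 7.69 FPKM, and Ggct with 1.39, 3.64 and 4.85. Of the gamma-glutamyl enzymes, which act on extracellular glutathione, Ggt1 was at 0.28, 2.56 and 1.44 FPKM and Ggt5 at 1.55, 0.07 and 0.56. Ggt1 passed the filter of 1 FPKM only through the libraries with particles, and Ggt5 only through CTL. Anpep, an aminopeptidase, was lower with 46.12, 19.43 and 26.37 FPKM, and the theta-class transferase Gstt1 with 25.3, 12.83 and 11.9, the latter in the same direction as the mu class.

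Of 15 other NADPH sources, 3 were higher and 3 lower past 1.5-fold in Ti against CTL. Idh1, cytosolic isocitrate dehydrogenase, was at 58.7, 27.49 and 35.59 FPKM, opposite in direction to Taldo1 and Pgd, and its mitochondrial counterpart Idh2, the most abundant of the list, at 86.58, 54.67 and 67.23. Mthfd2, of the mitochondrial folate pathway, was at 27.23, 54.41 and 58.57 FPKM. In the remaining thioredoxin and glutaredoxin system, 4 of 17 genes were higher and 3 lower in Ti. The sestrins Sesn1 (50.63, 18.05 and 18.99 FPKM) and Sesn3 (51.51, 19.39 and 24.0 FPKM), stress-responsive regulators, were both lower past 2-fold. The third sestrin, Sesn2, went the other way and was higher past 1.5-fold in Ti, at 15.48, 24.0 and 16.37 FPKM. Sesn2 falls outside the rule for named genes and was chosen after its values were seen. Txndc5, the most abundant gene of the list, was at 144.84, 113.64 and 114.63 FPKM. Of the other genes of oxidase complexes and their partners, 4 of 11 reached 1 FPKM and none of them was past 1.5-fold, with P4hb, a protein disulfide isomerase, the most abundant at 435.2, 440.82 and 484.96 FPKM. Hmox2, the constitutive heme oxygenase, was at 43.45, 56.78 and 51.17 FPKM and Blvra at 10.89, 16.25 and 14.41, so that Hmox1 exceeded Hmox2 in all 3 libraries.

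**Figure D5:**
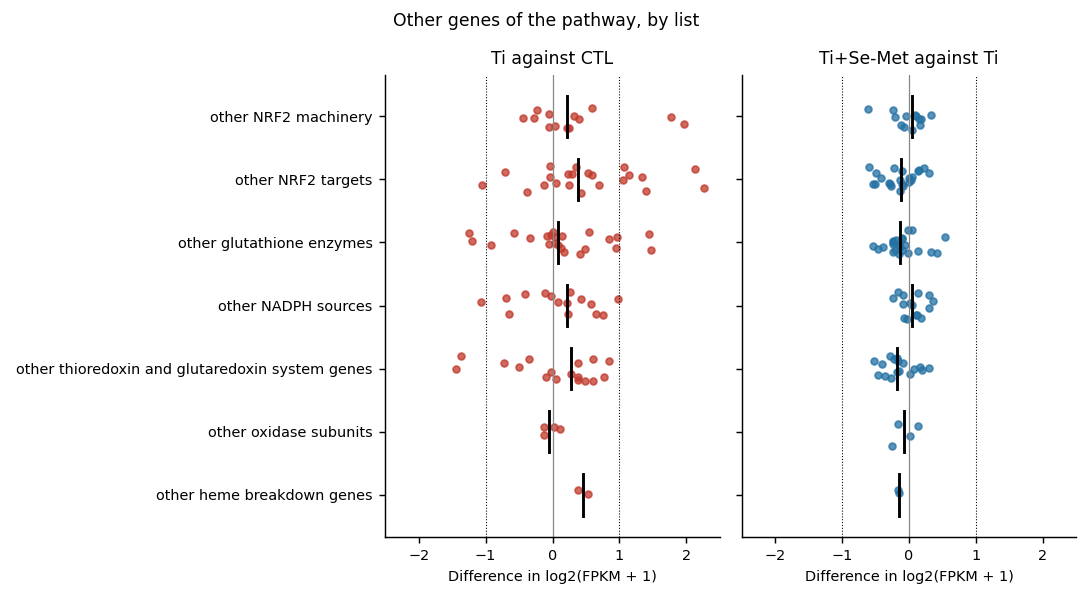
Differences in log2(FPKM + 1) of the genes in 7 further lists that reached 1 FPKM, in Ti against CTL (left) and Ti+Se-Met against Ti (right), with 1 point per gene, a bar at the list's median and dotted lines at 2-fold. On the left, other NRF2 targets reach from -1.05 to 2.26, and on the right no gene is past 2-fold.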

How the data were processed

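RNA-seq of 3 libraries, 1 per condition, was analysed from 1 table of 15287 genes. The authors removed adapter and low-quality reads, aligned with HISAT2, sorted with SAMtools, used HTSeq to count reads per gene, and the deposited values are FPKM with 2 decimals. The submitters' processing notes also name StringTie and mm9. How FPKM was made from reads is not given in the sources used here, nor is any scaling between libraries. Columns were matched to libraries by their names.

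Ratios on the log2(FPKM + 1) scale were taken for the 11137 genes that reached 1 FPKM in a library, using scipy 1.17.1, pandas 2.3.3 and numpy 2.4.6 under Python 3.11.15. With 1 library per condition no test was possible, and lists are described by counts and medians beside all genes. Depth was read from steps of 1 fragment in single-transcript genes of 350 to 1000 bases, subtracting 175 bases from each length (GENCODE M21, GRCm38, by RefSeq accession, found for 98.0% of the filtered genes). Genes with several transcripts were given the median of their lengths. Intervals and depths cover counting error only, and the intervals were not redone under a scaling. The steps were tested on simulated data. All 42 genes are named, and genes of the other lists where past 2-fold or most abundant. Genes and lists were chosen with earlier results of these data known. Alternatives were pseudocounts of 0.1 and 5, other filters, scaling by TPM, median of ratios or upper quartile, and a 2-fold threshold.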

Additional observations from a re-analysis of the deposited data

How the results depend on the processing

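No paired analysis was possible because there was 1 library per condition, which also meant that none could be omitted. For Ti against CTL, 18 of 41 genes were past 1.5-fold, against 7 at 2-fold and 35 by a counting interval that left out equal levels, a rule added after seeing the data. Over all genes, 15.5% were higher and 11.3% lower past 1.5-fold, and 3.63% and 3.64% past 2-fold. By the interval 43.1% were higher and 32.2% lower, so most of all genes also left out equal levels. For Ti+Se-Met against CTL the 15 became 1 and 37, and with Se-Met against Ti alone the 1 became 26 by the interval and 2 with a pseudocount of 0.1, where Mgst1 joined Hmox1. Over all genes, Ti+Se-Met against CTL had 10.4% higher and 11.7% lower past 1.5-fold, 2.64% and 3.32% past 2-fold, and 36.1% and 33.5% by the interval. Ti+Se-Met against Ti had 0.844% higher and 1.28% lower past 1.5-fold, and 15.8% and 29.4% by the interval. With a pseudocount of 0.1 it had 1.89% and 3.35% past 1.5-fold. Stricter thresholds leave fewer genes by construction. The other settings gave 14 to 18, 12 to 16 and 1 genes. The median ratio of 0.41 in Ti against CTL became 0.43 and 0.36 with pseudocounts of 0.1 and 5, 0.19 as TPM, 0.33 with median-of-ratios scaling and 0.24 with the upper quartile. The median of 0.31 in Ti+Se-Met against CTL became 0.32 and 0.28, 0.12, 0.30 and 0.16 in the same order, and 0.30 without a filter or with the filter at a mean of 5 FPKM. The median of -0.14 for Ti+Se-Met against Ti was again -0.14 with a pseudocount of 5 and under both filters, but -0.11 as TPM, -0.072 with median-of-ratios scaling and -0.11 with the upper quartile. Scaling shifts every gene by a constant factor by construction, and the distance between the genes' median and that of all genes in Ti against CTL stayed between 0.29 and 0.41. No gene past 1.5-fold changed direction under any scaling or pseudocount. Among all 42 genes, 5, 10 and 3 changed direction under a scaling in the 3 comparisons, all with small ratios. Ti+Se-Met was the shallowest library, and Mgst1 and Nox4 rested on the fewest fragments.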

Other observations

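The deposited table assigns KEGG and GO terms to its genes, and 2 terms were looked at after the values above were known. The KEGG term for glutathione metabolism held 54 genes, of which 41 reached 1 FPKM. In Ti against CTL, 14 of them were higher and 8 lower past 1.5-fold, with a median ratio of 0.14, against 15.5% and 11.3% of all genes and a median of 0.08, and the summed level was 2011.72, 2430.12 and 2183.32 FPKM, in the order CTL, Ti, Ti+Se-Met. Outside the genes and lists above the term held 13 genes, 8 of which reached 1 FPKM. Among these, Srm, spermidine synthase, was past 2-fold in Ti against CTL, at 20.14, 41.41 and 39.0 FPKM.

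The GO term for response to oxidative stress held 78 genes outside the lists, of which 68 reached 1 FPKM, with 8 higher and 11 lower past 1.5-fold in Ti against CTL and a median ratio of 0.12, to be read against the same shares and median of all genes. Their summed level was nearly equal in the libraries, at 2951.98, 3040.96 and 2964.22 FPKM. Higher past 2-fold in Ti against CTL was Txnip, which encodes a thioredoxin-binding protein (19.56, 42.51 and 0.96 FPKM). Between Ti+Se-Met and Ti its fold was 0.0226 (0.0148 to 0.0329), and that of Ptgs2, the inducible cyclooxygenase (6.1, 13.0 and 51.82 FPKM), was 3.99 (3.68 to 4.32). Lower past 2-fold in Ti against CTL were Mmp9, a gelatinase (9.48, 1.46 and 1.95 FPKM), Aldh1a1, a retinaldehyde dehydrogenase (4.16, 0.46 and 0.5 FPKM), App, the amyloid precursor protein (301.8, 128.81 and 186.45 FPKM), and Mill2 (10.69, 3.16 and 3.24 FPKM). These genes fall outside the rule for named genes and were chosen after their values were seen.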
